A study of Homo sapiens with 28 samples.

Results

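The 9 genes described here code for simple-epithelial keratins (KRT8, KRT18, KRT19), an epithelial adhesion protein (EPCAM) and transcription factors of non-neural and border ectoderm (TFAP2A, TFAP2C, GATA2, GATA3, DLX5). They were taken by gene name from a table of 58219 genes, and all 9 passed the filter on low values that 27912 genes passed. Each gene name has 1 row. The samples came from H9, an established line of human embryonic stem cells, either wild type (WT) or SOX1-/- (KO), in 14 groups of 2 libraries. The study asked what SOX1, an early neural transcription factor, does during neural differentiation.

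Undifferentiated cells (ES, day 0) of both genotypes had no further label. At days 4 and 8 both genotypes, labelled as progenitors derived from these cells, came from cultures marked IWP2, CT0.4 or CT1.0. IWP2 blocks the secretion of WNT ligands. The labels do not spell CT out and give its number without a unit. WT libraries carry the control numbers 1 and 2 and KO libraries the numbers 26 and 48, read here as lines. The labels do not say whether a line is 1 clone or whether libraries come from separate cultures, so p-values measure only the spread between these libraries, which may be technical.

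Keratins of types I and II pair into the intermediate filaments of epithelial cells, and KRT8 with KRT18 or KRT19 forms the filaments of simple, single-layered epithelia and of early embryonic cells. EPCAM marks epithelia and human embryonic stem cells. When ectoderm divides into neural plate and surface ectoderm, BMP signalling favours the non-neural side, where TFAP2A, TFAP2C, GATA2, GATA3 and DLX5 act early. Some of these factors also work elsewhere: TFAP2C in placenta and germ cells, GATA2 and GATA3 in trophoblast and in some interneurons, DLX5 in the forebrain.

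Levels are TPM (transcript abundance per gene, scaled for length) as deposited. The depth of each library is unknown from this unit. Differences are limma estimates on log2(TPM + 1), on which the change of low genes appears smaller than it is, with the group named first minus the other. A gene was called when its Benjamini-Hochberg adjusted p from limma, over all genes tested, was under 0.05. In WT, the 2 CT0.4 and 2 CT1.0 libraries taken on day 4 stood apart, with 17694 to 18233 genes at a TPM of at least 1 against 18876 to 20338 in the other 24. The median of all genes for KO against WT on day 4 was 0.13 in CT0.4 and 0.19 in CT1.0 on the log2 scale, so changes there are to be read against those shifts. In WT on day 4, CT1.0 minus IWP2 had a median of -0.22. SOX1, the targeted gene, was 84.1 and 98.0 TPM in WT CT1.0 on day 4 and 0.705 and 3.08 TPM in KO CT1.0. On day 8 it was 72.1 and 79.4 TPM in WT CT1.0 and 1.14 and 2.77 TPM in KO CT1.0. In both CT0.4 cultures and in IWP2 on day 8 WT was above KO as well, whereas in IWP2 on day 4, at 0.907 and 0.990 TPM in WT and 0.410 and 1.14 TPM in KO, SOX1 was low in both and does not check the labels. These are bulk libraries, in which fewer cells of a type and less RNA per cell cannot be told apart.

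On GRCh38 (GENCODE 29), KRT8 lies on the minus strand of chromosome 12 (chr12:52897187-52949954) and overlaps KRT18, on the plus strand (chr12:52948871-52952901), by 1084 bases. The sources used here do not say whether counting used the strand, and both keratins have near-identical pseudogenes, so their values are less certain than those of the other members. KRT19 lies at chr17:41523617-41528308, EPCAM at chr2:47345158-47387601, TFAP2A at chr6:10393186-10419659, TFAP2C at chr20:56629302-56639283, GATA2 at chr3:128479427-128493185, GATA3 at chr10:8045378-8075203 and DLX5 at chr7:97020392-97024950. The gene IDs of all 9 matched this annotation without the version and those of 6 with it.

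Promoter windows from RefSeq (GRCh38.p14) were matched by symbol for 4 of the 9 genes: KRT8, TFAP2A, GATA2 and GATA3. The 250 bases before the start are shown for KRT8, abundant in every library, and for GATA2 and GATA3, near 0 in most, 5′ to 3′ on the gene's own strand. They span chr12:52926470-52926719 (minus strand), chr3:128493202-128493451 (minus strand) and chr10:8045083-8045332 (plus strand). The KRT8 window precedes a start that lies inside the KRT8 span given above, far downstream of that span's own start, and gene-level TPM do not say which start the transcripts used. The GATA2 and GATA3 windows precede starts just outside their spans given above, 1 of 2 starts held for GATA2 and 1 of 6 for GATA3. Bases just after both starts were not found in the GENCODE 29 transcripts of these genes, so these starts are less certain. Capitals mark GCCNNNGGC, the TFAP2 motif, searched on both strands.
KRT8: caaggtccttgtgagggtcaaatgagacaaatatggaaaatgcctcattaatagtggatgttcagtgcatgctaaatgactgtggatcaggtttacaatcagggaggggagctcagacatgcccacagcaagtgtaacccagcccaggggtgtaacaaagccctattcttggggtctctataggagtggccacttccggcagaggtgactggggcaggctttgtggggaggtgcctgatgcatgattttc
GATA2: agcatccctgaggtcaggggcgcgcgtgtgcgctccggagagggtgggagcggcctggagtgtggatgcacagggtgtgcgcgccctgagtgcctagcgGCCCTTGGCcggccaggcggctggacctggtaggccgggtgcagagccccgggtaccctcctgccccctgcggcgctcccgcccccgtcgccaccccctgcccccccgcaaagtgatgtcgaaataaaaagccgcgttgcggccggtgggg
GATA3: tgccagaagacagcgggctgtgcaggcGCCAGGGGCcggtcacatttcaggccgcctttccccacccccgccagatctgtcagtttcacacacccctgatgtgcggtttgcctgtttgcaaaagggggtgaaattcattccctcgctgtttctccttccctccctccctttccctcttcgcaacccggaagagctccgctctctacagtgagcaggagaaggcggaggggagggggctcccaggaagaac
The KRT8 window held none of the letters searched and 50.4% G or C, against a median of 58% over 35116 promoters. The GATA2 window, with 72.8% G or C, held GCCCTTGGC 151 to 143 bases before the start and 1 GC box (GGGCGG, either strand), and the GATA3 window held GCCAGGGGC 223 to 215 bases before the start. GCCNNNGGC occurs in 19.8% of all promoter windows of this length and the GC box in 42.6%. The TFAP2A window, not shown, held TATAAA 30 to 25 bases before the start, a match on the plus strand that 6.80% of promoters have, and no GCCNNNGGC. The GATA letters AGATAA, in 9.17% of promoters on either strand, were in none of the 4 windows. These are matches of letters, not binding sites, and the files hold no binding data.

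**Figure D1:**
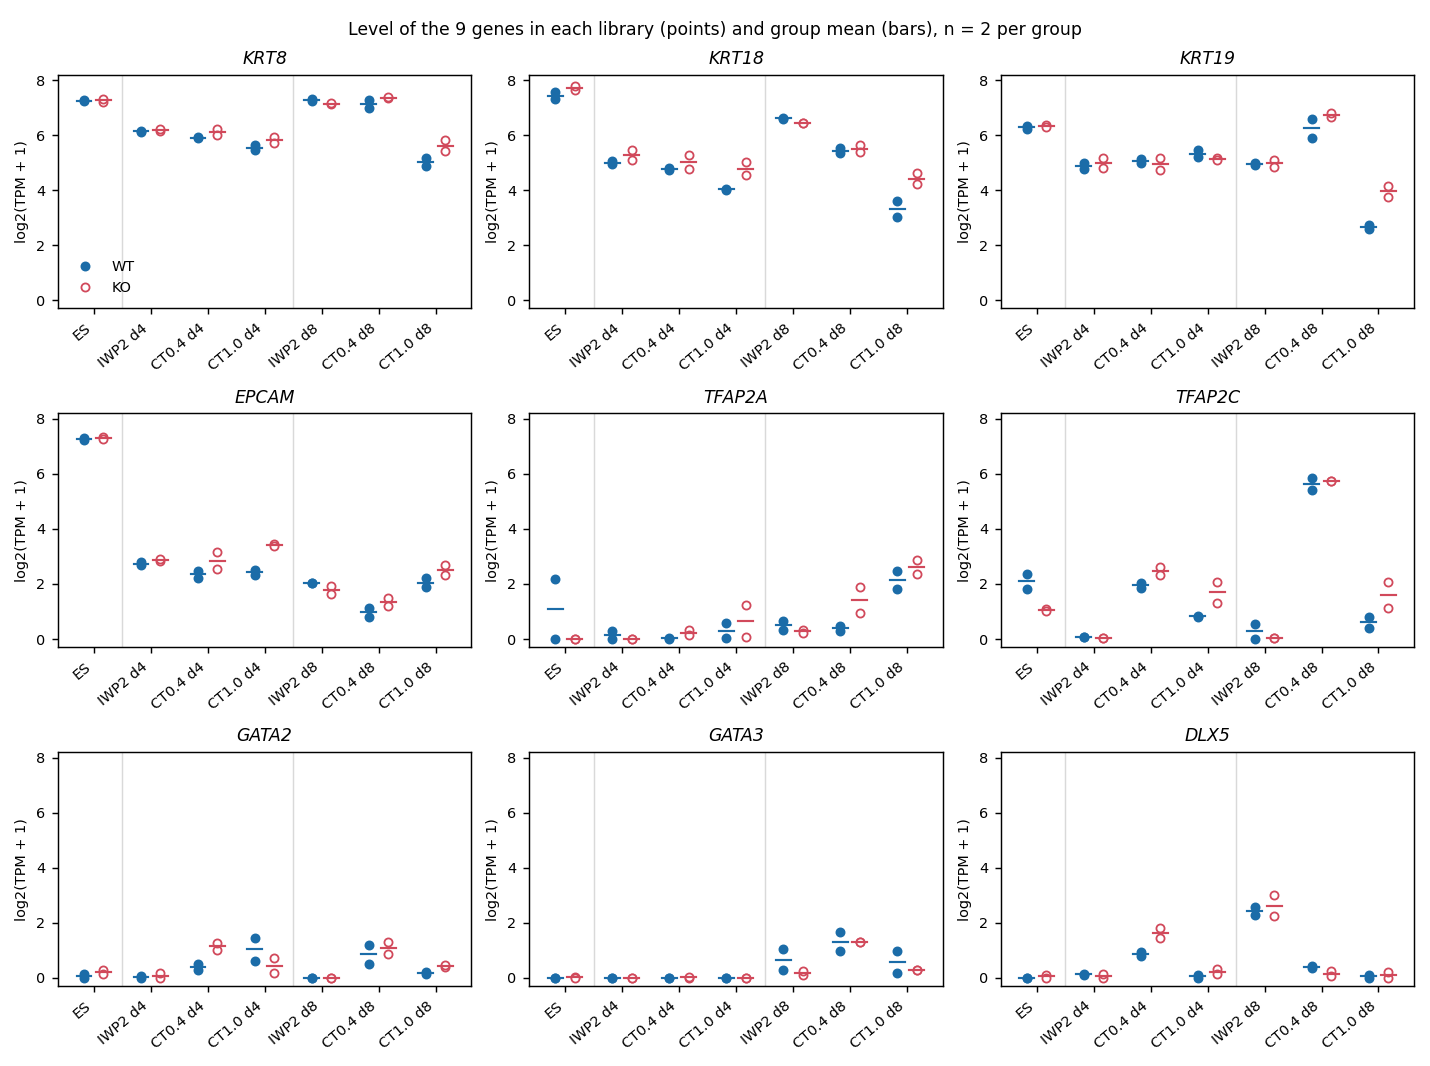
Level of each gene as log2(TPM + 1) (vertical axis) in the 7 cultures (horizontal axis), with 1 point per library (filled blue for WT, open red for KO) and bars at the group means of 2 libraries. The keratins and EPCAM start high in ES cells, TFAP2C is high in CT0.4 on day 8 in both genotypes, and TFAP2A, GATA2, GATA3 and DLX5 do not pass 6.97 TPM in any library.

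The 3 keratins were present in all 28 libraries, at 4.99 TPM or more, and differed between days and cultures. KRT8, a type II keratin, stood at 149 and 153 TPM in WT ES cells. On day 4 the WT libraries held 69.3 and 68.9 TPM with IWP2, 57.8 and 59.4 TPM with CT0.4, then 42.8 and 48.3 TPM with CT1.0. All 6 day 4 libraries of WT were below both WT ES libraries. KRT8 fell from ES to day 4 by 1.12 (SE 0.129, adjusted p = 2.77e-06) in IWP2, by 1.35 (adjusted p = 3.41e-07) in CT0.4 and by 1.71 (adjusted p = 1.85e-08) in CT1.0.

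KRT18, the type I partner of KRT8, dropped further: from 158 and 187 TPM in WT ES cells it reached, on day 4, 30 and 32.1 TPM with IWP2, 26.7 and 25.8 TPM with CT0.4, then 15.2 and 15.6 TPM with CT1.0. Its differences from ES were -2.43, -2.66 and -3.40 (SE 0.203 each, adjusted p at most 6.46e-08). KRT19, a type I keratin that also pairs with KRT8, went from 79.6 and 74.3 TPM to 30.9 and 26.2 TPM with IWP2, 30.7 and 33.9 TPM with CT0.4, then 35.8 and 42.7 TPM with CT1.0. It fell by 1.40, 1.23 and 0.96 (SE 0.196 each, adjusted p at most 0.000995). In these libraries the groups of ES and day 4 did not overlap for any of the 3 keratins. Of the 9 genes, 5 were called lower in WT IWP2 on day 4, where 14.9% of all genes tested were called lower. In CT0.4 it was 4 lower and 1 higher (DLX5), against 17.7% and 12.2% of all genes, and in CT1.0 5 lower and 1 higher (GATA2), against 20.8% and 10.2%. That GATA2 call (0.97, adjusted p = 0.0109) ended without WT ES line 1 (0.90, adjusted p = 0.0669) or WT CT1.0 day 4 line 2 (0.56, adjusted p = 0.206).

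On day 4 the WT cultures also differed among themselves, although the 4 CT libraries compared are those that stood apart. CT1.0 against IWP2, 3 of 9 genes were called, against 20% of all genes: KRT8 (-0.59, adjusted p = 0.00344), KRT18 (-0.97, adjusted p = 0.00274) and GATA2 (1.01, adjusted p = 0.0145). With median-ratio scaling of the columns KRT8 (-0.26, adjusted p = 0.264) and KRT18 (-0.64, adjusted p = 0.0614) were not called. The GATA2 call ended without WT IWP2 line 1 (0.96, adjusted p = 0.0812) or line 2 (1.05, adjusted p = 0.0533), or without WT CT1.0 line 2 (0.59, adjusted p = 0.218). CT1.0 against CT0.4, KRT18, TFAP2C and DLX5 were called lower, against 4.47% of all genes, and each of these 3 calls ended without any 1 of the 4 libraries (adjusted p from 0.101 to 0.197).

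Between days 4 and 8 the keratins took different courses in the cultures. In WT IWP2, KRT8 rose to 157 and 150 TPM (1.14, adjusted p = 1.94e-05) and KRT18 to 97.7 and 95.6 TPM (1.61, adjusted p = 5.58e-05), whereas KRT19 stood at 30.3 and 29.2 TPM (0.06, adjusted p = 0.93). In WT CT0.4, KRT8 rose to 154 and 127 TPM (1.24, adjusted p = 1.72e-06) and KRT19 to 95.9 and 59.0 TPM (1.2, adjusted p = 0.000195). KRT18 was 45.0 and 39.6 TPM there (0.66, adjusted p = 0.0226). That KRT18 call ended with median-ratio scaling (0.36, adjusted p = 0.268), and without WT CT0.4 day 4 line 1 (0.69, adjusted p = 0.0818) or line 2 (0.64, adjusted p = 0.0977) or day 8 line 1 (0.57, adjusted p = 0.139). The keratin that regained its ES level thus differed: KRT8 did so in IWP2 and CT0.4, where its libraries overlapped those of WT ES cells, KRT19 in CT0.4 alone among the WT day 8 cultures, and KRT18 in none.

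In WT CT1.0 all 3 keratins went lower still. KRT19 fell by 2.67 (SE 0.196, adjusted p = 2.21e-07) to 4.99 and 5.63 TPM, the lowest values of its 28 libraries. KRT8 was 28 and 35.2 TPM (-0.52, adjusted p = 0.0114) and KRT18 was 7.18 and 11.1 TPM (-0.72, adjusted p = 0.0238). The KRT8 call ended without WT CT1.0 day 4 line 2 (-0.43, adjusted p = 0.104) or day 8 line 1 (-0.36, adjusted p = 0.174). The KRT18 call ended without WT CT1.0 day 4 line 1 (-0.74, adjusted p = 0.0975) or line 2 (-0.70, adjusted p = 0.103), or without day 8 line 1 (-0.43, adjusted p = 0.300). From day 4 to day 8 the called members were 3 higher and 1 lower in IWP2, against 8.97% and 4.85% of all genes. They were 5 and 1 in CT0.4, against 19.7% and 5.08%, and 1 and 4 in CT1.0, against 12.2% and 2.45%. In KO no library stood apart by the number of genes at a TPM of at least 1. The called members there were 3 higher (KRT8, KRT18, DLX5) and 1 lower (EPCAM) in IWP2, against 6.87% and 2.85%. In KO CT0.4 they were 4 and 2, against 14.4% and 7.07%, and in KO CT1.0 1 (TFAP2A) and 2 (KRT19, EPCAM), against 4.16% and 6.87%. The KO CT1.0 rise of TFAP2A (1.96, adjusted p = 0.0203) ended without day 4 line 48 (1.37, adjusted p = 0.208) or day 8 line 26 (2.21, adjusted p = 0.0509) or line 48 (1.72, adjusted p = 0.119), and with a pseudocount of 0.1 (adjusted p = 0.101). The fall of EPCAM there (-0.92, adjusted p = 0.00662) ended without day 8 line 48 (-0.73, adjusted p = 0.0707). The WT CT0.4 and CT1.0 values rest on the day 4 libraries that stood apart.

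The cultures of day 8, none of which stood apart, separated the keratins most. WT CT1.0 against IWP2, KRT18 differed by -3.29 (SE 0.203, adjusted p = 1.13e-08), with 9.16 ± 2.8 TPM against 96.6 ± 1.48 (mean ± SD, n = 2). KRT19 (-2.29, adjusted p = 4.56e-07) and KRT8 (-2.25, adjusted p = 4.96e-09) were lower as well. Against CT0.4 the WT CT1.0 differences were -3.60 for KRT19 (adjusted p = 3.19e-09), -2.12 for KRT8 (adjusted p = 8.28e-09) and -2.12 for KRT18 (adjusted p = 1.11e-06). CT0.4 against IWP2, KRT19 was higher by 1.31 (adjusted p = 0.000159) and KRT18 lower (-1.18, adjusted p = 0.000642), while KRT8 differed by -0.13 (95% interval -0.41 to 0.14, adjusted p = 0.614). So IWP2 and CT0.4 held like amounts of KRT8 but different type I partners, KRT18 in IWP2 and KRT19 in CT0.4 being the more abundant. In KO cells on day 8, KRT19 was 33.3 and 27.9 TPM in IWP2 and 98.7 and 110 TPM in CT0.4, and KRT18 86.7 and 85.5 TPM and 49.2 and 40.3 TPM. KO CT0.4 against IWP2, both were called, KRT19 higher (1.74, adjusted p = 5.11e-06) and KRT18 lower (-0.94, adjusted p = 0.00337).

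Over the 14 group means, KRT8 correlated with KRT18 at 0.88 and with KRT19 at 0.78, and KRT18 with KRT19 at 0.66; group means share libraries and scaling across genes, and no test is given. The highest group mean was 5.15 times the lowest for KRT8, 22.8 times for KRT18 and 19.6 times for KRT19, and WT CT1.0 on day 8 was the lowest group for all 3. In the order of the 14 group means of KRT8, 8 of 13 neighbouring pairs had overlapping libraries. The counterpart counts were 6 for KRT18 and 8 for KRT19. Of 14 other keratins listed, 3 passed the filter (KRT7, KRT10 and KRT20). KRT5 and KRT1 were listed at 0 in all 28 libraries and KRT14 did not pass 0.162 TPM (KRT5 and KRT14 are the basal keratins of stratified epidermis). KRT7, a simple-epithelial type II keratin, was 20.1 and 14.1 TPM in WT ES cells and fell by day 4 in IWP2 (-3.80, adjusted p = 4.66e-08).

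EPCAM had the steepest fall of the 9 genes. It stood at 151 and 159 TPM in WT ES cells and on day 4 at 5.4 and 5.99 TPM with IWP2, 4.58 and 3.63 TPM with CT0.4, then 4.73 and 4.03 TPM with CT1.0. The differences were -4.54, -4.94 and -4.86 (SE 0.201 each, adjusted p at most 3.23e-11). Unlike KRT8, it did not return by day 8. The WT values were then 3.07 and 3.11 TPM with IWP2, 0.743 and 1.18 TPM with CT0.4, and 2.68 and 3.64 TPM with CT1.0, all below those of day 4 in the same culture. From day 4 to day 8 EPCAM fell by 1.38 (adjusted p = 6.09e-05) in WT CT0.4 and by 1.5 (adjusted p = 2.74e-05) in KO CT0.4. In WT CT1.0 the change was -0.38 (adjusted p = 0.248), and in WT IWP2 it was -0.71 (adjusted p = 0.0259), a call that ended without any 1 of its 4 libraries (WT IWP2 lines 1 and 2 on day 4 and on day 8; adjusted p from 0.0704 to 0.143). EPCAM was 162 and 154 TPM in KO ES cells, and its highest group mean was 164 times its lowest.

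The other epithelial genes moved from ES to day 4 as EPCAM did. Of a list of 30 genes for epithelial junctions and identity, 28 were tested, and 2 were higher and 22 lower in WT IWP2 on day 4, with a median of -2.45 against 0.09 over all genes tested. In CT0.4 it was 0 higher and 26 lower (median -2.60, all genes 0), and in CT1.0 0 and 26 (median -3.11, all genes -0.05). CD9, a tetraspanin of the stem cell surface, went from 271 ± 8.13 to 1.16 ± 0.103 TPM in IWP2 (-6.97, adjusted p = 3.31e-13). CLDN7, a tight-junction claudin (-6.35), CDH1, the epithelial cadherin (-5.41), and AP1M2, an adaptor of epithelial sorting (-5.32), were also lower by limma (adjusted p at most 2.11e-06). Not all junction genes did so in IWP2: DSP, the desmosomal plaque protein desmoplakin, was 22.2 ± 1.13 TPM against 22.8 ± 0.904 in ES cells (-0.04, adjusted p = 0.978), and OCLN, a tight-junction protein, 17.6 ± 1.68 TPM against 26.5 ± 3.15 (-0.57, adjusted p = 0.0532). With median-ratio scaling OCLN was called (-0.76, adjusted p = 0.00966), and with the line as a block it was called too (-0.57, adjusted p = 0.0215). Of 12 pluripotency genes 11 fell in each WT culture by day 4, and of 14 pan-neural genes 10 or 11 rose.

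**Figure D2:**
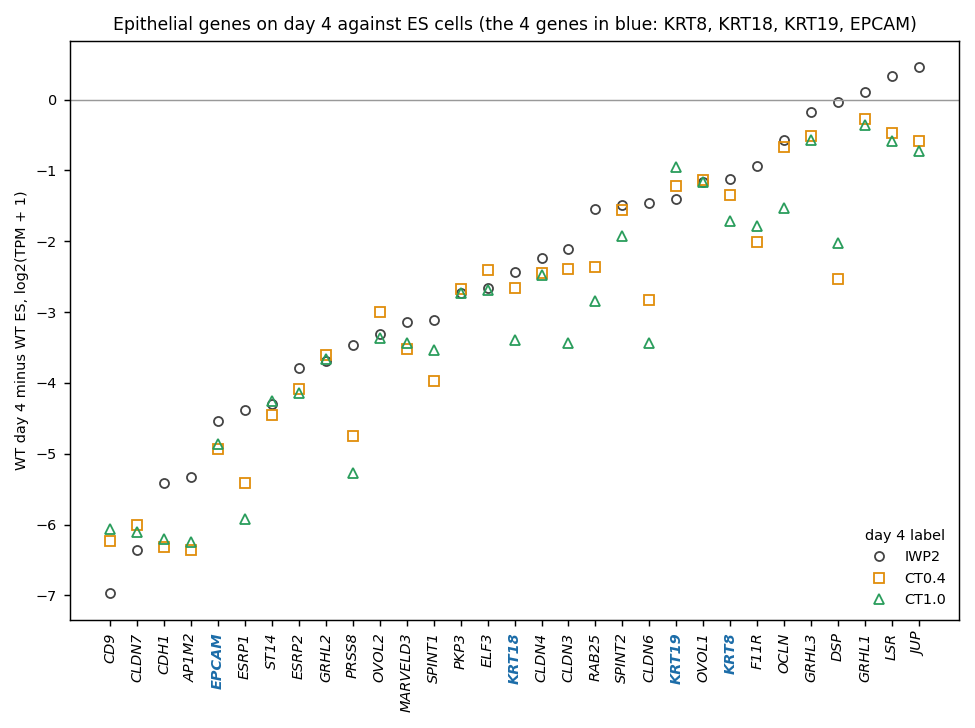
Difference of WT day 4 from WT ES cells on the log2(TPM + 1) scale (vertical axis) for KRT8, KRT18, KRT19 and EPCAM (blue names) and 27 of the 28 tested epithelial genes (horizontal axis, ordered by IWP2), with 1 symbol per culture. EPCAM, at -4.54 to -4.94, sits among the genes that fell most, and the keratins, at -0.96 to -3.40, among the middle and upper genes.

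TFAP2C, a transcription factor of early ectoderm, placenta and germ cells, was the 1 member with a high level in a single culture. In CT0.4 on day 8 it stood at 56.5 and 41.7 TPM in WT and at 52.3 and 52.4 TPM in KO, while no other library passed 5.15 TPM. WT CT0.4 against IWP2, the difference was 5.35 (SE 0.307, adjusted p = 1.74e-09), and in KO it was 5.70 (SE 0.307, adjusted p = 7.49e-10). WT CT1.0 against CT0.4 it was -5.03 (adjusted p = 8.28e-09). The genotypes differed by 0.11 in CT0.4 on day 8 (95% interval -0.54 to 0.75, adjusted p = 1).

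Already on day 4 TFAP2C was at 3.11 and 2.64 TPM in WT CT0.4 against 0.0587 and 0.0572 TPM in WT IWP2 (1.87, adjusted p = 0.000577). It then rose by 3.68 (adjusted p = 1.43e-07) to day 8 in WT CT0.4 and by 3.26 (adjusted p = 5.33e-07) in KO CT0.4. WT ES cells held 4.18 and 2.57 TPM and KO ES cells 1.14 and 1.05 TPM, groups that did not overlap (-1.04, adjusted p = 0.199). From ES to day 4 it fell by 2.02 (adjusted p = 5.27e-05) in WT IWP2, and was at 0.791 and 0.756 TPM in WT CT1.0 (-1.28, adjusted p = 0.00361). That CT1.0 call ended without WT ES line 1 (-1.01, adjusted p = 0.0569).

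On day 8 the called members for WT CT0.4 against IWP2 were 2 higher (TFAP2C, KRT19) and 3 lower (KRT18, EPCAM, DLX5), against 6.29% and 5.89% of all genes. For CT1.0 against IWP2 in WT they were 0 and 4, against 2.97% and 7.82%, and for WT CT1.0 against CT0.4 2 and 4, against 4.2% and 10.1%. In KO the counts were 4 (KRT19, TFAP2C, GATA2, GATA3) and 2 (KRT18, DLX5) for CT0.4 against IWP2, against 8.61% and 7.89% of all genes. They were 3 and 4 for CT1.0 against IWP2, against 3.78% and 16.7%, and 1 and 5 for CT1.0 against CT0.4, against 4.54% and 18.5%. Some of these KO calls did not hold with each library left out: GATA2 and GATA3 for CT0.4 against IWP2, EPCAM for CT1.0 against IWP2 (0.71) and GATA3 for CT1.0 against CT0.4 (-1.01).

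The BMP response genes were high in the same CT0.4 libraries as TFAP2C. Of 11 such genes, all tested, 9 were higher and 0 lower in WT CT0.4 than in WT IWP2 on day 8, with a median of 3.17 against 0 over all genes. MSX1, a homeobox target of BMP, was 234 ± 116 TPM against 0.864 ± 0.0187 (6.88, adjusted p = 2.20e-10), and MSX2 28.6 ± 15.2 TPM against 0.246 ± 0.0121 (4.47, adjusted p = 4.91e-08). ID1, an inhibitor of neural bHLH factors, was 159 ± 25.9 TPM against 6.86 ± 1.32 (4.35, adjusted p = 7.60e-09), and BAMBI, a decoy receptor, was higher as well (3.78, adjusted p = 2.54e-08). ID2 (0.52, adjusted p = 0.185) and SMAD7 (0.70, adjusted p = 0.263) were not called. BMP4, the ligand, was 54.8 and 34.1 TPM in WT CT0.4 against 5.14 and 2.96 TPM in WT IWP2.

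Markers of surface ectoderm did not go with TFAP2C as a group. Of 16 non-neural ectoderm and placode genes 12 were tested, and in WT CT0.4 against IWP2 on day 8 2 were higher (MSX2, and TFAP2B at 3.89 and 2.38 TPM against 0 in both libraries) and 2 lower (PAX8 and DLX6), with a median of -0.35. The TFAP2B call ended without WT CT0.4 line 1 (1.76, adjusted p = 0.0614). TP63, the master regulator of stratified epithelium, did not pass 0.582 TPM in any library, nor HAND1 0.177 and WNT6 0.234. Neural crest genes, which share the border with this tissue, were 5 higher and 4 lower (SOX9, NGFR, LMO4 and SOX8) of 12. PAX3 was 153 ± 18.9 TPM against 1.66 ± 0.25 (5.85, adjusted p = 1.79e-10). LMO4 went the other way, with a mean of 48.4 TPM against 159 TPM (-1.698, adjusted p = 5.67e-10). This list therefore did not move as a group either. PAX6, a neural factor, was 353 and 406 TPM in these WT CT0.4 libraries, so they carried neural transcripts as well.

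**Figure D3:**
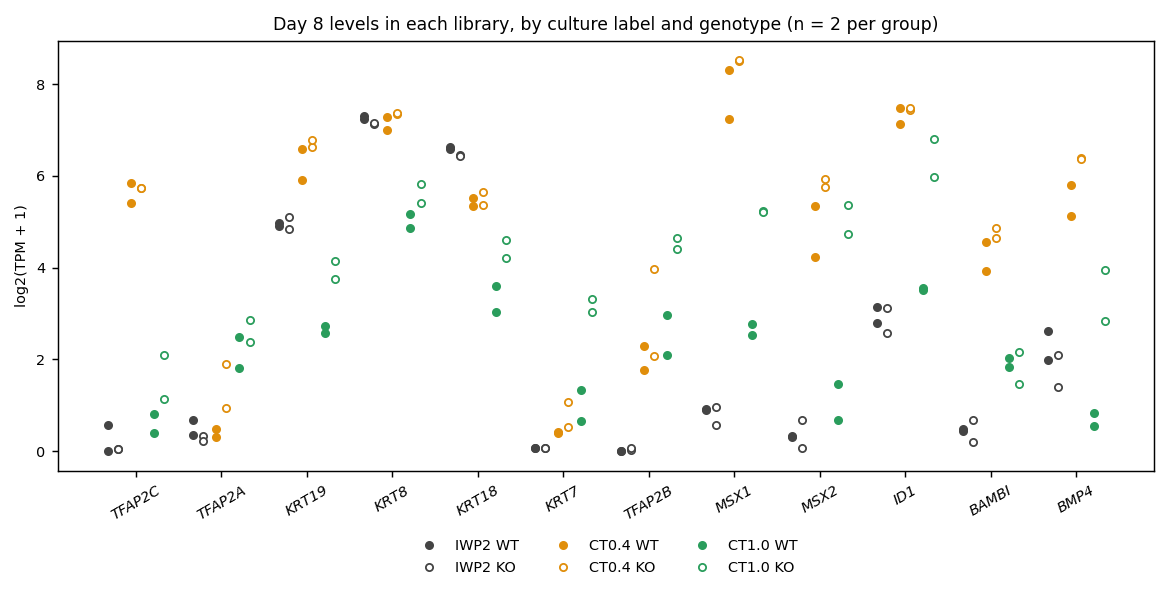
Day 8 levels as log2(TPM + 1) (vertical axis) of 5 members and 7 genes of the BMP, keratin and TFAP2 lists (horizontal axis), with 1 point per library, colours for the culture and open symbols for KO. TFAP2C is at 41.7 to 56.5 TPM in CT0.4 and at most 3.25 TPM in the other cultures, and in CT1.0 the KO points lie above the WT points for the 3 keratins.

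TFAP2A, a key factor of neural crest and surface ectoderm, was low in all libraries, with a median of 0.248 and a highest value of 6.30 TPM. It was highest in CT1.0 on day 8, at 4.6 and 2.52 TPM in WT and 4.17 and 6.30 TPM in KO, and these groups overlapped. In WT CT1.0 its rise from day 4 (0.496 and 0.0222 TPM) was 1.84 (SE 0.519, adjusted p = 0.0230), a call that ended without day 4 line 1 (2.12, adjusted p = 0.0561) or line 2 (1.57, adjusted p = 0.150), or without day 8 line 1 (1.51, adjusted p = 0.186). WT CT1.0 against CT0.4 on day 8 it was 1.75 higher (adjusted p = 0.0298), and that call ended without any 1 of the 4 libraries (adjusted p from 0.0506 to 0.212). With a pseudocount of 0.1 both calls ended (adjusted p = 0.0669 and 0.142). In WT ES cells it was listed at 3.48 TPM in line 1 and 0 in line 2. In KO it was 2.34 higher in CT1.0 than in IWP2 on day 8 (adjusted p = 0.00351), a call kept with each of the 4 libraries left out. KO CT1.0 against CT0.4 on day 8 TFAP2A was not called (1.21, adjusted p = 0.113), at 4.17 and 6.30 TPM against 2.72 and 0.907 TPM. All 13 neighbouring pairs in its order of group means overlapped.

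GATA2, a zinc-finger factor of trophoblast, blood and some interneurons, did not pass 1.76 TPM, and all 13 neighbouring pairs in its order of group means overlapped. It was listed at 0 in the 4 IWP2 libraries of day 8 and was 0.826 and 1.45 TPM in KO CT0.4 (1.08, adjusted p = 0.0103). That call ended without KO IWP2 line 26 (adjusted p = 0.0511) or line 48 (adjusted p = 0.0542), or without KO CT0.4 line 48 (0.87, adjusted p = 0.110). In WT CT1.0 on day 4 it was 0.549 and 1.76 TPM, and its fall to day 8 was called (-0.86, adjusted p = 0.0420) but ended without WT CT1.0 day 4 line 2 (-0.45, adjusted p = 0.412) or day 8 line 1 (-0.83, adjusted p = 0.175) or line 2 (-0.90, adjusted p = 0.120).

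GATA3, its paralogue in trophoblast and surface ectoderm, was listed at 0 in all WT day 4 libraries and reached at most 2.17 TPM. On day 8 it was 0.947 and 2.17 TPM in WT CT0.4 and 1.5 and 1.44 TPM in KO CT0.4, a rise from day 4 of 1.31 (adjusted p = 0.00143) and 1.28 (adjusted p = 0.00192). In IWP2 on day 8 it stood at 0.208 and 1.08 TPM in WT and at 0.0760 and 0.183 TPM in KO. Of 14 genes of GABAergic and V2b-type neurons, cells that use GATA2 and GATA3, 9 were tested and 5 were higher and 1 lower in WT CT0.4 than in IWP2 on day 8. SOX14, which marks some of these neurons, did not pass 0.0805 TPM.

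DLX5, a homeobox factor of the neural plate border and forebrain, had a pattern of its own. It was highest in IWP2 on day 8, at 3.92 and 4.93 TPM in WT and 6.97 and 3.73 TPM in KO, and rose there from day 4 by 2.31 (adjusted p = 3.64e-06) and 2.56 (adjusted p = 1.30e-06). In CT0.4 it was instead higher on day 4 than on day 8. On day 4 it was 0.746 and 0.933 TPM in WT and 2.55 and 1.75 TPM in KO, groups that did not overlap (0.77, adjusted p = 0.0613). On day 8 it was 0.356 and 0.276 TPM in WT CT0.4 and 0.181 and 0.0511 TPM in KO CT0.4. The fall was called in KO (-1.49, adjusted p = 8.60e-05), also with each of the 4 libraries left out, and not in WT. WT CT0.4 against IWP2 on day 4 it was 0.75 higher (adjusted p = 0.0318), as was TFAP2C, so 2 of 9 were called higher against 2.45% of all genes. The DLX5 call ended without any 1 of the 4 libraries (adjusted p from 0.109 to 0.153). On day 8 the WT difference had the other sign (-2.04, adjusted p = 4.67e-06). DLX6, its neighbour in the DLX5/DLX6 pair, was 1.44 ± 0.131 TPM in WT IWP2, and in WT CT0.4 both libraries list it at 0.

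KO and WT cells were compared in each of the 7 cultures. In ES cells, IWP2 on days 4 and 8 and CT0.4 on days 4 and 8, limma called 0 of the 9 genes. Of all genes tested it called 0.219% in ES cells. The shares were 0.043% (day 4) and 0.0609% (day 8) for IWP2, and 4.24% (day 4) and 0.416% (day 8) for CT0.4. At an unadjusted p under 0.05 in limma, 1 of 9 passed in ES cells (TFAP2C), against 10.8% of all genes at that threshold. None of the 9 passed in IWP2 on day 4 or day 8, against 8.3% and 5.04%. In CT0.4 it was 3 of 9 on day 4 (EPCAM, GATA2, DLX5), against 18.7%, and 1 of 9 on day 8 (KRT19), against 9.28%. In CT1.0 the share over all genes was 14.9% on day 4 and 14.3% on day 8.

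In CT1.0 on day 8 the 3 keratins and TFAP2C were higher in KO, 4 of 9 genes, where 4.34% of all genes were called higher. KRT19 was 16.7 and 12.6 TPM in KO against 4.99 and 5.63 TPM in WT. KRT18 was 23.3 and 17.6 TPM against 7.18 and 11.1 TPM, and KRT8 55.9 and 41.3 TPM against 28 and 35.2 TPM. TFAP2C was 3.25 and 1.19 TPM against 0.739 and 0.323 TPM. In all 4 genes both KO libraries were above both WT libraries, and KO line 26 was the higher KO library. The differences were 1.30 for KRT19 (SE 0.196, adjusted p = 0.000481), 1.10 for KRT18 (SE 0.203, adjusted p = 0.00199), 0.60 for KRT8 (SE 0.129, adjusted p = 0.00539) and 1.01 for TFAP2C (SE 0.307, adjusted p = 0.0358).

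The KRT19 call was kept with each of the 4 libraries left out. Without KO line 26 KRT18 was at 0.90 (adjusted p = 0.0524), KRT8 at 0.38 (adjusted p = 0.133) and TFAP2C at 0.53 (adjusted p = 0.462). Without WT line 1 KRT8 was at 0.44 (adjusted p = 0.0979) and TFAP2C at 1.21 (adjusted p = 0.0760), and without WT line 2 TFAP2C was at 0.81 (adjusted p = 0.211). TFAP2C was also not called without the 4 WT day 4 CT libraries (adjusted p = 0.0549), with no filter (adjusted p = 0.0555) or with a pseudocount of 0.1 (adjusted p = 0.0685). Fitted with only these 4 libraries, none of the 4 was called (adjusted p from 0.191 to 0.350). The other members gave 0.46 for EPCAM (adjusted p = 0.155), 0.47 for TFAP2A, 0.24 for GATA2, -0.28 for GATA3 and 0.05 for DLX5.

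On day 4 in CT1.0, EPCAM and KRT18 were higher in KO, 2 of 9, against 12.4% of all genes called higher. EPCAM was 9.92 and 9.51 TPM in KO against 4.73 and 4.03 TPM in WT (1, SE 0.201, adjusted p = 0.00321), and the call was kept with each of the 4 libraries left out. KRT18 was 31.5 and 22.3 TPM against 15.2 and 15.6 TPM (0.75, adjusted p = 0.0197). It was not called without KO line 26 (0.51, adjusted p = 0.228), WT line 1 (0.73, adjusted p = 0.103) or WT line 2 (0.77, adjusted p = 0.0738), nor with median-ratio scaling (0.49, adjusted p = 0.138). KRT19 was 35.0 and 33.4 TPM in KO and 35.8 and 42.7 TPM in WT on that day (-0.19, adjusted p = 0.589). The WT libraries here are among those that stood apart, and no WT CT1.0 day 4 value exists without them. Of the 28 epithelial genes 6 were higher and 0 lower (median 0.39, all genes 0.19), among them CLDN3 at 9.87 ± 3.57 TPM against 2.06 ± 0.298 (1.79, adjusted p = 0.000291) and CD9 at 8.61 ± 0.0914 TPM against 3.13 ± 1.11 (1.24, adjusted p = 0.000914).

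**Figure D4:**
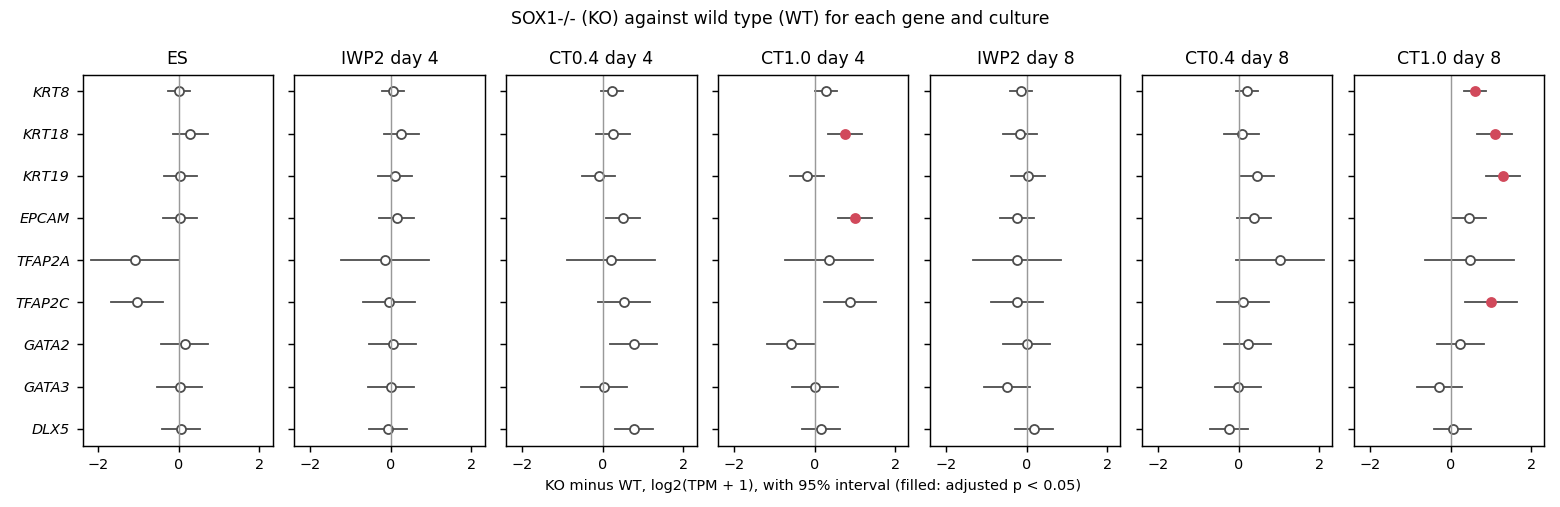
Difference of KO from WT on the log2(TPM + 1) scale (horizontal axis) with its 95% interval for the 9 genes (vertical axis) in the 7 cultures (panels), with filled red points for adjusted p under 0.05. Filled points occur in CT1.0 alone: EPCAM and KRT18 on day 4, and KRT8, KRT18, KRT19 and TFAP2C on day 8.

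Whether the KO effect depends on culture or day was tested directly. On day 8 the effect in CT1.0 exceeded that in IWP2 for KRT8, KRT18 and KRT19, 3 of 9 genes, against 0.91% of all genes with a higher difference. The 3 values were 0.73 (adjusted p = 0.0376), 1.26 (adjusted p = 0.0261) and 1.27 (adjusted p = 0.0215), and 5 of the 8 libraries each ended all 3 calls when left out: KO IWP2 line 48, KO CT1.0 line 26, WT IWP2 lines 1 and 2 and WT CT1.0 line 1 (adjusted p from 0.0642 to 0.211). Without KO IWP2 line 26 the KRT8 (adjusted p = 0.0766) and KRT18 (adjusted p = 0.0518) calls ended. The KRT8 call also ended with no filter on low values (adjusted p = 0.0525) and without the 4 WT day 4 CT libraries (adjusted p = 0.0555). CT1.0 against CT0.4, 0 of 9 were called (1.55% of all genes higher, 3.05% lower): KRT18 stood at 1.02 (adjusted p = 0.0527) and KRT19 at 0.83 (adjusted p = 0.0971). With the line as a replicate block 1 member was called, as with median-ratio scaling. With 1 library left out it was 3 without KO CT1.0 line 48, and 1 each without WT CT0.4 line 2 and WT CT1.0 line 2. CT0.4 against IWP2, 0 of 9 were called, against 0.147% of all genes. Between days, the effect in CT1.0 was larger on day 8 for KRT19 (1.49, SE 0.277, adjusted p = 0.00549), 1 of 9 against 0.885% of all genes, and was called with each of the 8 libraries left out (1.30 to 1.68, adjusted p at most 0.0315). This KRT19 value rests on the WT CT1.0 day 4 libraries, which stood apart, and does not exist without them. In IWP2 and CT0.4 the count between days was 0 of 9 (0.0537% and 0.838% of all genes). For TFAP2C the effect in CT1.0 minus that in IWP2 on day 8 was 1.24 (adjusted p = 0.126).

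Other genes moved in the same CT1.0 day 8 libraries. KRT7, at 8.92 and 7.13 TPM in KO against 1.52 and 0.568 TPM in WT, was the 1 of the 3 tested other keratins called (2.18, adjusted p = 0.000305). The non-neural ectoderm and placode list had 3 higher and 0 lower of 12 (median 0.23, all genes -0.02). The 3 were MSX2 (3.98, adjusted p = 6.10e-06), PAX8 (2.72, adjusted p = 0.00188) and TFAP2B (1.99, adjusted p = 0.00587). TFAP2B, a paralogue of TFAP2C and TFAP2A, was at 20.2 and 23.9 TPM in KO against 6.79 and 3.27 TPM in WT. TFAP2B was not called without WT line 2 (1.56, adjusted p = 0.0729) or with a pseudocount of 0.1 (2.19, adjusted p = 0.0736). Over its 16 genes this list summed to 90.5 and 107 TPM in the KO libraries and 20.7 and 24 TPM in the WT libraries. Most of the KO sum came from MSX2, PAX8 and TFAP2B, with KO means of 32.8, 28.1 and 22 TPM. The other 9 tested genes were not called, so the sum does not show a rise of the list as a whole. MSX2 is also in the BMP response list, and TFAP2B in the neural crest and amnion lists. The part of this list in the keratin difference was not tested, and TP63 and HAND1 were at most 0.0718 TPM in these 4 libraries.

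BMP response genes were 6 higher and 0 lower of 11 (median 0.82), with ID1 at 86.6 ± 34.5 TPM against 10.6 ± 0.226 (2.86, adjusted p = 1.90e-05), MSX1 at 36.4 ± 0.308 TPM against 5.27 ± 0.749 (2.58, adjusted p = 0.000144) and BMP4 at 14.5 and 6.17 TPM against 0.787 and 0.466 TPM (2.70, adjusted p = 0.000576). Neural crest genes were 3 higher and 3 lower of 12, PAX3 being higher (2.50, adjusted p = 4.47e-05) and NGFR lower (-1.67, adjusted p = 0.000951). The epithelial list split, 4 higher and 3 lower of 28 (median 0.08), with SPINT2, a protease inhibitor, higher (1.55, adjusted p = 0.000313). CDH1 was at most 0.192 TPM in all 4 libraries.

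Amnion and trophoblast genes were 2 higher (KRT7, TFAP2B) and 2 lower (IGFBP3, PGF) of the 7 tested of 15, where the PGF call ended without KO line 26 (-0.75, adjusted p = 0.198), WT line 1 (-1.08, adjusted p = 0.0539) or WT line 2 (-0.85, adjusted p = 0.1), and the list summed to 38.1 and 44.8 TPM in KO and 34.0 and 53.0 TPM in WT. Mesendoderm genes were 1 higher (CXCR4) of 4 tested, and the list summed to 25.7 and 26.8 TPM in KO and 14.7 and 16.0 TPM in WT. Over all 28 libraries its genes differed in level. SOX17, EOMES and GATA6 stayed under 0.168 TPM, whereas CXCR4 reached 44.4 TPM, AFP 19.4 TPM and GSC 4.05 TPM. Pan-neural genes were 3 higher and 7 lower of 14 (median -0.50), summing to 1960 and 2216 TPM in KO and 3365 and 3641 TPM in WT. Of all genes tested, 14.3% were called in either direction and 4.34% higher. SOX1, the targeted gene, is in this list and among the 7 lower. The called genes named below were picked by the size of their difference, and the 3 higher genes are not among them. Apart from SOX1 itself, NES, a neural intermediate filament, was 312 ± 139 TPM against 959 ± 93.5 (-1.69, adjusted p = 0.00127). PAX6 was 6.53 TPM in KO line 26 and 19.4 TPM in line 48 against 34.1 and 39.0 TPM in WT (-1.60, adjusted p = 0.0052). Without line 26 PAX6 stood at -0.88 (adjusted p = 0.126). SOX2 (-0.23, adjusted p = 0.246) and SOX11 (-0.20, adjusted p = 0.276) were not called. The part of these genes in the keratin values was not tested.

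The genes most like each member were taken as those with the highest Pearson r of log2(TPM + 1) over the 14 group means, among 11124 candidates whose group means spanned at least 1. They were IFITM3, an interferon-induced membrane protein, for KRT8 (0.94), HAPLN3 for KRT18 (0.95), SLC7A8, an amino acid transporter, for KRT19 (0.93), and KCNK5, a potassium channel, for EPCAM (0.98). For the transcription factors they were PAG1 for TFAP2A (0.92, but 0.55 over the 28 libraries), FAM181B for TFAP2C (0.96), CACHD1 for GATA2 (0.88), HABP4 for GATA3 (0.96) and DLX6 for DLX5 (0.98). Between members, TFAP2C correlated with GATA3 at 0.73, with GATA2 at 0.69 and with KRT19 at 0.56, and with KRT18 at 0.02. These are descriptions over groups that share 2 genotypes and 3 times.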

How the data were processed

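Poly(A) RNA from 28 samples was sequenced and the authors deposited gene-level TPM for 58219 genes. Per the submitters' processing notes, hg38, Salmon 0.8.2 and CASAVA 1.7 were used; their roles and the annotation release are not stated there, nor which sample ran on which of the 2 named sequencers, so no batch was fitted. Genes with TPM of at least 1 in at least 2 libraries were tested with limma 3.58.1 (R 4.3.3, intensity trend, 14 residual degrees of freedom) on log2(TPM + 1), with 1 mean per group over all 28 libraries, in 31 comparisons, with Benjamini-Hochberg adjustment within each. The fit was tested on simulated data. An exact permutation test of 2 against 2 cannot go below 0.333, so none was used. TPM keeps no depth, so no counting interval is given.

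The members and lists were chosen with earlier results of these data known. Named genes are all 9 members, SOX1, up to 4 called genes of a described list by fold change and up to 2 uncalled ones by TPM, and the genes most like each member; names in more than 1 row, clones and pseudogenes were left out. CDH1, TP63, BMP4, PAX6 and other genes given by level alone were chosen after their values were seen. The alternatives tried were median-ratio scaling, no filter, a pseudocount of 0.1, a fit of the compared libraries alone, the line as a replicate block and each library left out. Leaving out the 4 WT day 4 CT libraries was chosen after seeing the data. Whether lines pair across groups was checked by correlating line differences over genes: -0.0937 to 0.0783 in WT (0 of 21 pairs of groups over 0.1) and -0.0572 to 0.204 in KO (8 of 21). The main fit did not pair samples by line, although in KO some line differences were shared between groups. With the line as a replicate block, 188 of 191 values of members and named genes kept their sign and call. Values of a few listed genes are not reported here, although the counts and medians of their lists include them.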

Additional observations from a re-analysis of the deposited data

Results flagged for a closer look

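In 4 results the KO effect differed between cultures or days by a limma test of the difference itself. On day 8 the KO minus WT difference in CT1.0 minus that in IWP2 was 0.73 for KRT8 (SE 0.183, adjusted p = 0.0376), 1.26 for KRT18 (SE 0.287, adjusted p = 0.0261) and 1.27 for KRT19 (SE 0.277, adjusted p = 0.0215). In CT1.0 the difference on day 8 minus that on day 4 was 1.49 for KRT19 (SE 0.277, adjusted p = 0.00549). That value rests on the WT CT1.0 day 4 libraries, which stood apart. Fitted with only the compared libraries, none of the 4 was called (adjusted p = 0.257, 0.197, 0.144 and 0.0644).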

How the results depend on the processing

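Of 96 calls of the members, 69 were kept with each compared library left out in turn and 39 were kept with only the compared libraries in the fit, which leaves 2 residual degrees of freedom in a comparison of 2 groups. Counts of members called moved by over 1.5 times as follows; the cause was not tested. With no filter, WT CT1.0 against CT0.4 on day 4 went from 3 to 1. With median-ratio scaling, the genotype comparison in CT1.0 on day 4 went from 2 to 1 and the KO effect in CT1.0 minus CT0.4 from 0 to 1. The replicate block moved that KO effect from 0 to 1 and no other count of members. With only the compared libraries the counts became 0 for the genotypes in CT1.0 (days 4 and 8), KO CT1.0 against IWP2, KO day 8 against day 4 in IWP2 and CT1.0, and the KO effects CT1.0 minus IWP2 and day 8 minus day 4 in CT1.0. They became 1 for WT CT0.4 against IWP2 and CT1.0 against CT0.4 on day 4, WT CT1.0 against CT0.4 on day 8 and WT CT1.0 day 8 against day 4. They became 2 for WT CT0.4 against IWP2 on day 8, KO CT1.0 against CT0.4 and WT CT0.4 day 8 against day 4, and 3 for KO CT0.4 against IWP2.

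With 1 library left out, counts of members called ran from 0 to 1 between genotypes in ES cells, 1 to 3 in CT1.0 on day 4 and 1 to 4 in CT1.0 on day 8. For the KO effects they ran from 0 to 3 for CT1.0 minus CT0.4 and 0 to 4 for CT1.0 minus IWP2. They were 1 in every case for WT CT0.4 against IWP2 and 0 for CT1.0 against CT0.4 on day 4, and ran from 1 to 5 for WT and 1 to 3 for KO day 8 against day 4 in CT1.0.

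Signs turned for uncalled values near 0. Among KO minus WT values, GATA3 in CT0.4 on day 8 became 0.0274 with a pseudocount of 0.1, and KRT8 in ES cells -0.0084 with median-ratio scaling. With 1 library left out, the ES values ran from -0.0504 to 0.0671 for KRT8, -0.0074 to 0.0904 for KRT19 and -0.013 to 0.068 for EPCAM. Those of KRT19 ran from -0.0744 to 0.2763 (IWP2 day 4), -0.321 to 0.112 (CT0.4 day 4) and -0.0925 to 0.1546 (IWP2 day 8). Those of KRT18 ran from -0.0085 to 0.506 (CT0.4 day 4) and -0.0634 to 0.2171 (CT0.4 day 8). On day 8 the CT0.4 values ran from -0.1079 to 0.321 for TFAP2C, -0.1207 to 0.5714 for GATA2 and -0.3587 to 0.3436 for GATA3. SOX1 in IWP2 on day 4 ran from -0.4666 to 0.1361, DLX5 in IWP2 on day 8 from -0.1907 to 0.562, and DSP on day 4 against ES from -0.0898 to 0.01.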

Other observations

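In KO cells TFAP2C was higher in CT1.0 than in IWP2 on day 8 as well, at 3.25 and 1.19 TPM against 0.0294 and 0.0300 TPM (1.57, SE 0.307, adjusted p = 0.00139 by limma). The same comparison in WT gave 0.32 (adjusted p = 0.63), and the difference between the genotypes, 1.24, was not called (adjusted p = 0.126). KRT10, a keratin best known from epidermis, was between 6.05 and 14.1 TPM in all 28 libraries. GABRP, a gene of the amnion list, was 40.8 and 33.0 TPM in WT ES cells and 29.4 and 26.1 TPM in KO ES cells.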
